A study of Homo sapiens with 6 samples.

Results

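Cyclins, their kinases (CDKs), CDK inhibitors and E2F factors were followed in SAS cells, an established line of human oral squamous cell carcinoma. The set holds 55 listed genes, and every array probe set with one of these symbols in the platform annotation belongs to it. Of them 54 had probe sets with a single symbol, 142 probe sets in all, out of 19775 such genes on the array, and CDKN2C was not analysed here. All 54 passed the expression filter described with the processing, which 12935 genes in all passed. CDK5 lay below the filter level in the siCtrl group with DMSO, E2F8 and CDC25C lay below it in the siCYLD group with DMSO, and CDKN2D passed through the siCYLD group with DMSO alone.

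The study measured RNA on 6 Affymetrix arrays after transfection with an siRNA against CYLD (siCYLD) or a control siRNA (siCtrl). CYLD encodes a deubiquitinase that restrains NF-κB and other signalling. After 2 days of culture the cells spent 48 h in medium without serum, with an inhibitor of ALK5, the type I receptor for TGF-β, or with its solvent DMSO. There was 1 array of siCYLD with inhibitor, 1 of siCtrl with inhibitor, 2 of siCYLD with DMSO and 2 of siCtrl with DMSO. All groups therefore share the SAS background, a transfection and serum withdrawal. The labels name no second siRNA against CYLD, so effects on its other targets and loss of CYLD cannot be told apart.

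Groups followed the array titles. For siCYLD replicate 1 and siCtrl replicate 2 the source name gave the other siRNA. All 4 kept CYLD probe sets were lower in siCYLD, and the one that differed most read 71.1 in siCYLD and 421 in siCtrl with inhibitor, and 77.2 and 125 in siCYLD, against 485 and 550 in siCtrl, with DMSO, which goes with the titles. Of 10 epithelial markers 7 were measured and passed the filter, with EPCAM at 20200 to 21900 and KRT14 at 62.3 to 148. Of 6 fibroblast markers 4 passed, with COL1A1 at 284 to 399, while COL3A1 and LUM did not. Of 5 measured leukocyte and endothelial markers CD3E, PECAM1 and CDH5 passed, and PTPRC and CD14 did not. The ratio of 3' to 5' signal of ACTB was 2.38 in siCYLD and 3.67 in siCtrl with inhibitor, and 2.26 and 2.48 in siCYLD, against 3.41 and 3.21 in siCtrl, with DMSO. The ACTB ratio was thus lower in siCYLD on all arrays. The same ratio of GAPDH overlapped between the siRNAs. It was 1.97 in siCYLD and 1.87 in siCtrl with inhibitor, and 1.8 and 1.91 in siCYLD, against 2.14 and 1.79 in siCtrl, with DMSO. The median difference of 24 probe sets of added poly-A control RNAs, siCYLD minus siCtrl, was 0.32 (log2) with inhibitor and 0.39 and 0.18 between DMSO arrays of the same replicate number. The part of the ACTB ratio or of the control RNAs in the results below was not tested. Nothing says that duplicates came from separate cultures, and p-values therefore rest on a spread among arrays that may be only technical.

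As background, cyclins bind and activate CDKs in sequence. D cyclins with CDK4 or CDK6 and E cyclins with CDK2 phosphorylate the pocket proteins RB1, RBL1 and RBL2, which releases E2F factors to drive S-phase genes. Cyclins A and B with CDK1 then carry the cell through mitosis, held back by the kinase WEE1 and released by CDC25 phosphatases. In epithelial cells TGF-β is known for a cytostatic programme in which the CDK inhibitors p15 (CDKN2B) and p21 (CDKN1A) are induced and CDC25A is repressed.

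With the CYLD siRNA and DMSO, CCNB2, CCNB1, CCNA2, CDK1, CDC25C, WEE1, CDKN3 and E2F8 fell by at least 2-fold, while p21 (CDKN1A) rose. Signals are linear intensities, and differences are siCYLD minus siCtrl on a log2 scale with an offset of 16.06 added to the signal, given ± their standard error. Of the 54 genes tested with limma, 21 were lower and 4 higher at an adjusted p below 0.05, and 29 did not pass. Of all 12935 genes 21.3% were called, 11.8% lower and 9.49% higher. The median difference of the 54 genes was -0.22, beside -0.04 over all genes tested. In 33 genes both siCYLD arrays lay below both siCtrl arrays, where 34.1% of all genes did, and in 15 above them, where 26.8% did. Fewer cycling cells and less of a transcript per cell cannot be told apart in RNA of whole cultures. Without both arrays of conflicting labels, in a model that adds siRNA and inhibitor terms, 10 of the genes were called, 9 of them among the 25 and in the same direction.

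**Figure D1:**
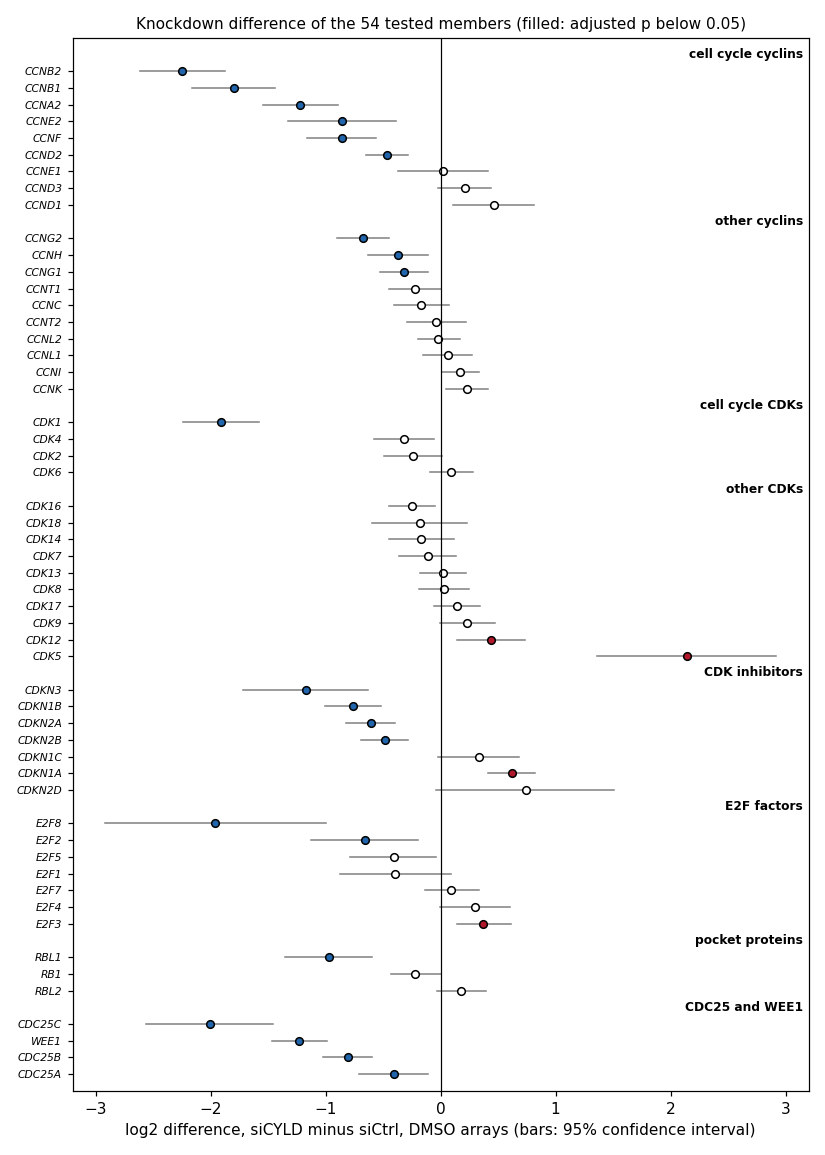
Knockdown difference of the 54 tested genes by role. The x axis is the log2 difference, siCYLD minus siCtrl, of DMSO arrays (2 against 2), bars are 95% confidence intervals from limma, and filled points passed an adjusted p of 0.05 (blue lower, red higher). CCNB2 is drawn at -2.25 and CDK5, whose siCtrl signals lay below the filter, at 2.14, and open points cluster near 0 for most of the transcriptional cyclins and CDKs.

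By the probe sets that represent the genes, the mitotic cyclins fell by more than the other tested cyclins did. CCNB2, which encodes cyclin B2, read 281 and 209 in siCYLD, against 1040 and 1420 in siCtrl. CCNB1, which encodes cyclin B1, read 245 and 198 in siCYLD, against 693 and 938 in siCtrl, and CCNA2, the S-phase and mitotic cyclin A2, read 275 and 252, against 567 and 708. In none of the 3 did the groups overlap. The differences were -2.25 ± 0.17 for CCNB2 (adjusted p = 1.31e-06, limma), -1.80 ± 0.17 for CCNB1 (adjusted p = 6.78e-06) and -1.22 ± 0.15 for CCNA2 (adjusted p = 8.63e-05). Both kept probe sets of CCNB1 and both of CCNA2 were called lower. The other kept CCNB2 probe set, at 98.1 and 82.2 in siCYLD, against 63.2 and 79.5 in siCtrl, differed by 0.28 and was not called (adjusted p = 0.597), and the mean of both CCNB2 probe sets differed by -0.98.

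The promoters of these 3 genes are shown because the genes fell together and because mitotic cyclin promoters are known for CCAAT boxes, bound by NF-Y, and for the cell cycle genes homology region, bound by the DREAM and MuvB complexes. The lines give the 150 bases before the start of the gene from the RefSeq promoter table (GRCh38.p14), 5′ to 3′ on the gene's strand, with matches in capitals: CCAAT or its complement ATTGG, and TTTGAA.
CCNB2, chr15:59104996-59105145, plus strand: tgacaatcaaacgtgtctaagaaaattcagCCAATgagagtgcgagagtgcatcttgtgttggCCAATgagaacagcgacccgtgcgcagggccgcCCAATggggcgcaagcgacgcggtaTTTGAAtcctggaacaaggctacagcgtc
CCNB1, chr5:69167000-69167149, plus strand: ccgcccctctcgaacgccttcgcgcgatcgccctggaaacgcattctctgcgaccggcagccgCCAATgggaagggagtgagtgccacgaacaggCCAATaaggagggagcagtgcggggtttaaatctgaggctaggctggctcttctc
CCNA2, chr4:121823884-121824033, minus strand: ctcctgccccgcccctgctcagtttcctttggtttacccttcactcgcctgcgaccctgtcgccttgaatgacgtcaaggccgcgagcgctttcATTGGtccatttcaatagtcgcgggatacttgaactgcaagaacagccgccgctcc

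In CCNB2 the CCAAT matches shown began 120, 87 and 54 bases before the start, a further one began 244 bases before it, and TTTGAA began 29 bases before it. CCNB1 held CCAAT at 87 and 55 bases, and CCNA2 held it on the other strand at 56 bases. The motifs were searched on both strands of the 250 bases before the start, and no match overlapped another motif. Promoters were found for 47 of the 55 genes. CCAAT stood in 5 of the 6 matched promoters of genes that fell at least 2-fold, in 9 of 17 of all that fell, in 11 of 29 of the tested genes not called lower and in 32% of all 35116 promoters. TTTGAA stood in 3 of the 6, 4 of the 17, 2 of the 29 and 13.3% of all. The homology region was searched as TTTGAA alone, so a promoter without these letters, such as those of CCNB1 and CCNA2, is not shown to lack the region. These counts describe letters in a window and were not tested.

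CDK1, the kinase that cyclins A and B activate, read 224 and 173 in siCYLD, against 747 and 824 in siCtrl, with no overlap (-1.91 ± 0.15, adjusted p = 1.99e-06). All 3 of its kept probe sets were called lower. Its regulators fell with it. CDC25C, the phosphatase that activates CDK1 at mitosis, read 44.8 and 40 in siCYLD, against 207 and 232 in siCtrl (-2.01 ± 0.26, adjusted p = 9.89e-05), so that its siCYLD signals were close to the floor of the array. WEE1, the kinase that inhibits CDK1, read 1140 and 1260 in siCYLD, against 2640 and 3040 in siCtrl (-1.23 ± 0.11, adjusted p = 5.73e-06). Thus both the activating phosphatase and the opposing kinase were lower. CDC25B, a further activating phosphatase, read 2490 and 2670 in siCYLD, against 4670 and 4400 in siCtrl (-0.81 ± 0.10, adjusted p = 5.46e-05). CDKN3, a phosphatase that acts on CDKs, read 102 and 64.9 in siCYLD, against 199 and 209 in siCtrl (-1.17 ± 0.25, adjusted p = 0.0049), and its other kept probe set differed by -1.22.

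**Figure D2:**
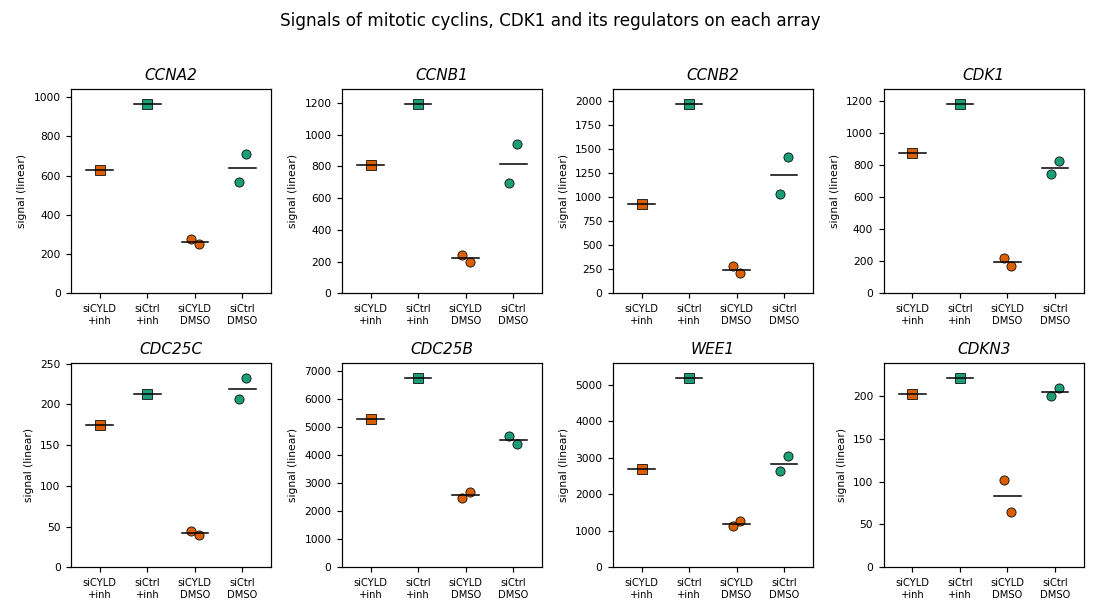
Linear signal on each array for 8 mitotic genes. Squares are inhibitor arrays, circles DMSO arrays, orange siCYLD and green siCtrl, and a line marks each group's mean (the value itself where there is 1 array). In each panel both DMSO siCYLD arrays lie below every other array, for CDK1 at 224 and 173.

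G1 cyclins and kinases moved less. CCND2, which encodes cyclin D2, read 11200 and 10000 in siCYLD, against 15100 and 14200 in siCtrl (-0.47 ± 0.09, adjusted p = 0.00186). A dimmer CCND2 probe set fell by 0.98 (adjusted p = 0.000195, limma by probe set), while its other kept ones differed by -0.43 and 0.19 and were not called. CCND1, which encodes cyclin D1, read 3310 and 3630 in siCYLD, against 2010 and 3150 in siCtrl. These groups did not overlap, but the siCtrl duplicates lay far apart and the difference of 0.46 did not pass (adjusted p = 0.0585, 95% interval 0.11 to 0.81). CCND3 differed by 0.21 and was not called. Of the E cyclins, which pair with CDK2, CCNE2 read 98.2 and 93.4 in siCYLD, against 180 and 194 in siCtrl (-0.86 ± 0.22, adjusted p = 0.0129), whereas CCNE1 differed by 0.02 (95% interval -0.37 to 0.41). CCNF, the substrate-binding cyclin of a ubiquitin ligase, fell by 0.86 ± 0.14 (adjusted p = 0.000679), and its other kept probe set differed by -0.23 and was not called. The CCNE2 call was lost without siCtrl replicate 2, with no filter and in the additive model. CDK2, CDK4 and CDK6 were not called, with differences of -0.24, -0.32 and 0.09.

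The CDK inhibitors split. CDKN1A, which encodes p21, read 8960 and 9810 in siCYLD, against 5930 and 6300 in siCtrl, and rose by 0.62 ± 0.09 (adjusted p = 0.000409). The additive model, which averages over the DMSO and the inhibitor arrays, did not call it. CDKN1B, which encodes p27, went the other way, at 1900 and 2110 in siCYLD, against 3130 and 3720 in siCtrl (-0.76 ± 0.11, adjusted p = 0.000345). The third gene of that family, CDKN1C (p57), differed by 0.33 and was not called.

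Among the inhibitors of CDK4 and CDK6, CDKN2A and CDKN2B fell. CDKN2A read 3880 and 4410 in siCYLD, against 6060 and 6580 in siCtrl (-0.61 ± 0.10, adjusted p = 0.000594). Its locus encodes p16 and, from another reading frame, ARF, and the values were not assigned to either. CDKN2B, which encodes p15, read 3050 and 3120 in siCYLD, against 4520 and 4130 in siCtrl (-0.48 ± 0.10, adjusted p = 0.00289). For neither gene did the groups overlap. The CDKN2B call was lost in the additive model and for the mean of its probe sets, the other kept one differing by -0.27. CDKN2D differed by 0.74 and was not called.

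E2F factors and pocket proteins also did not move as one. E2F8, an atypical repressing E2F, read 7.14 and 48.1 in siCYLD, against 121 and 148 in siCtrl (-1.96 ± 0.44, adjusted p = 0.00696), with siCYLD duplicates that differ widely near the floor and a difference of -2.75 to -0.68 over the alternatives. The activator E2F2 read 149 and 104 in siCYLD, against 207 and 207 in siCtrl (-0.66 ± 0.21, adjusted p = 0.0422), and that call was lost without siCtrl replicate 1, without siCtrl replicate 2 and without siCYLD replicate 2. The activator E2F3 rose by 0.37 ± 0.11 (adjusted p = 0.0277), a call lost without siCtrl replicate 1, without siCYLD replicate 1 and without siCYLD replicate 2, and its other kept probe set differed by -0.02. E2F1, E2F4, E2F5 and E2F7 differed by -0.40, 0.30, -0.41 and 0.09 and were not called. The second E2F4 probe set, at 765 and 817 in siCYLD, against 437 and 490 in siCtrl, was called higher (0.75, adjusted p = 0.00238), so that E2F4 depended on the probe set.

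Of the pocket proteins, RBL1 (p107) read 170 and 203 in siCYLD, against 355 and 406 in siCtrl (-0.97 ± 0.17, adjusted p = 0.0014), a call lost for the mean of its probe sets. RB1 and RBL2 (p130) differed by -0.22 and 0.18 and were not called. CDC25A, the phosphatase that acts on CDK2 at the start of S phase, read 339 and 340 in siCYLD, against 448 and 464 in siCtrl. Its difference of -0.41 stood at the threshold (adjusted p = 0.0496), and the call was lost under 13 of 17 alternative settings, leaving out each of the 4 DMSO arrays included. Its other kept probe sets differed by -0.75, which was called lower (adjusted p = 0.0123, limma by probe set), and by -0.03, which was not (adjusted p = 0.962).

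The promoters of RBL1, CDC25A and E2F2 are shown because, of the genes that fell, these 3 held a match to an E2F site. The sites searched were TTTCCCGC, TTTGGCGC, TTTCGCGC and TTTGCCGC, and capitals mark them together with ATTGG, the complement of CCAAT (150 bases before the start, GRCh38.p14, 5′ to 3′).
RBL1, chr20:37095998-37096147, minus strand: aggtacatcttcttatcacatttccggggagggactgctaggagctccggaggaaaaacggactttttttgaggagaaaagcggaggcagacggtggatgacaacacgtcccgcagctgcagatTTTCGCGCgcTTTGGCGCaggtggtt
CDC25A, chr3:48188418-48188567, minus strand: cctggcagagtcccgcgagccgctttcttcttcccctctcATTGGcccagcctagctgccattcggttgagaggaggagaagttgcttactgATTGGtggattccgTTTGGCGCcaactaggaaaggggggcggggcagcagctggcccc
E2F2, chr1:23531234-23531383, minus strand: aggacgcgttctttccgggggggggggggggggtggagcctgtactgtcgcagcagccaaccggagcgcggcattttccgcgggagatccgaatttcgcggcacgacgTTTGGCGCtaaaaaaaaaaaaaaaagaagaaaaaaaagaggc

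RBL1 held sites that began 26 and 16 bases before the start, CDC25A at 44 bases and E2F2 at 42 bases. Such a site stood in 3 of the 17 matched promoters of genes that fell, in 0 of the 6 of genes that fell at least 2-fold, in 2 of the 29 of tested genes not called lower, E2F1 and E2F3, and in 2.79% of all promoters.

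Cyclins and CDKs that act mainly in transcription or elsewhere were mostly not called. Of 10 such cyclins, limma called 3 lower and 0 higher, where 11.8% and 9.49% of all genes were. CCNG2, an atypical cyclin linked to cell cycle arrest, read 2360 and 2240 in siCYLD, against 3880 and 3480 in siCtrl (-0.68 ± 0.10, adjusted p = 0.000448), a call lost for the mean of its probe sets. CCNG1, a p53-responsive gene, fell by 0.32, and the call was lost without siCtrl replicate 1, without siCYLD replicate 1 and without siCYLD replicate 2. CCNH, the cyclin of CDK7, fell by 0.37, and the call was lost without siCtrl replicate 2, without siCYLD replicate 1 and without siCYLD replicate 2. CCNC, CCNI, CCNK, CCNL1, CCNL2, CCNT1 and CCNT2 lay between -0.22 and 0.23 and were not called.

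Of 10 such CDKs, limma called 2 higher and 0 lower, near the 21.3% of all genes called either way. CDK5, a kinase best known from neurons, read 108 and 139 in siCYLD, against 12.3 and 19 in siCtrl (2.14 ± 0.36, adjusted p = 0.000931). Its siCtrl signals lay near the floor, and the difference ranged from 1.23 to 2.92 over the alternatives. CDK12, which phosphorylates RNA polymerase II, rose by 0.44 ± 0.14 (adjusted p = 0.0359) by the probe set that represents it, at 1390 and 1140 in siCYLD, against 1000 and 852 in siCtrl. Its 6 other kept probe sets were not called, with differences of -0.23 to 0.25, and the call was lost without siCtrl replicate 2. Without siCYLD replicate 1 another probe set had the highest mean and stood for the gene. That probe set, at 920 in siCYLD, against 983 and 1190 in siCtrl, differed by -0.23. CDK7, CDK8, CDK9, CDK13, CDK14, CDK16, CDK17 and CDK18 lay between -0.25 and 0.23 and were not called. A further CDK16 probe set was called higher (0.39, adjusted p = 0.0244), against -0.25 for the one that represents the gene.

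Over all kept probe sets of the set, 120 in number, 29 were called lower and 6 higher, where 9.06% of all 24537 kept probe sets were lower and 7.7% higher. No gene had kept probe sets called in both directions.

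The inhibitor pair gives the same siCYLD minus siCtrl difference as 1 array against 1, with no replicate and no p. Of the 21 genes lower with DMSO, 18 also lay below 0 in the inhibitor pair, which shares no array with the DMSO comparison. Of all 12935 genes, called or not, 6573 did. The share among all 1530 genes called lower was not counted, so these counts do not set the 21 genes apart from other genes that fell. The median of the 21 was -0.27 with inhibitor and -0.86 with DMSO, but the genes were chosen for a low DMSO difference, so a smaller size in the pair is no result. CCNB2 read 937 in siCYLD and 1970 in siCtrl (-1.06), and CDK1 877 and 1180 (-0.42). CDC25C read 175 in siCYLD and 213 in siCtrl (-0.26), and CCNB1 811 and 1190 (-0.54). By the probe sets that represent them, these 4 genes were thus lower in siCYLD than in siCtrl with inhibitor too. The other kept CCNB2 probe set went the other way, at 116 in siCYLD and 57.2 in siCtrl (0.85), so that CCNB2 depended on the probe set. CCNE2, E2F2 and CDKN2B were the 3 of the 21 that lay above 0 (0.08, 0.44 and 0.10).

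CDKN1B, which encodes p27, read 1830 in siCYLD and 4520 in siCtrl with inhibitor, a difference of -1.30. By the probe sets that represent the genes, CDKN1B and CCNB2 were the 2 genes at least 2-fold lower in the pair, where 2.81% of all genes were. At least 2-fold higher were 0, where 3.91% of all genes were (6.73% past 2-fold either way). CCNG2 read 1950 in siCYLD and 3430 in siCtrl (-0.81). WEE1 read 2690 in siCYLD and 5180 in siCtrl (-0.94). Over all 6 arrays, 11 genes lay lower in the 3 siCYLD arrays than in all 3 siCtrl arrays, where 15.3% of all genes did, and 10 lay higher, where 12.6% did.

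**Figure D3:**
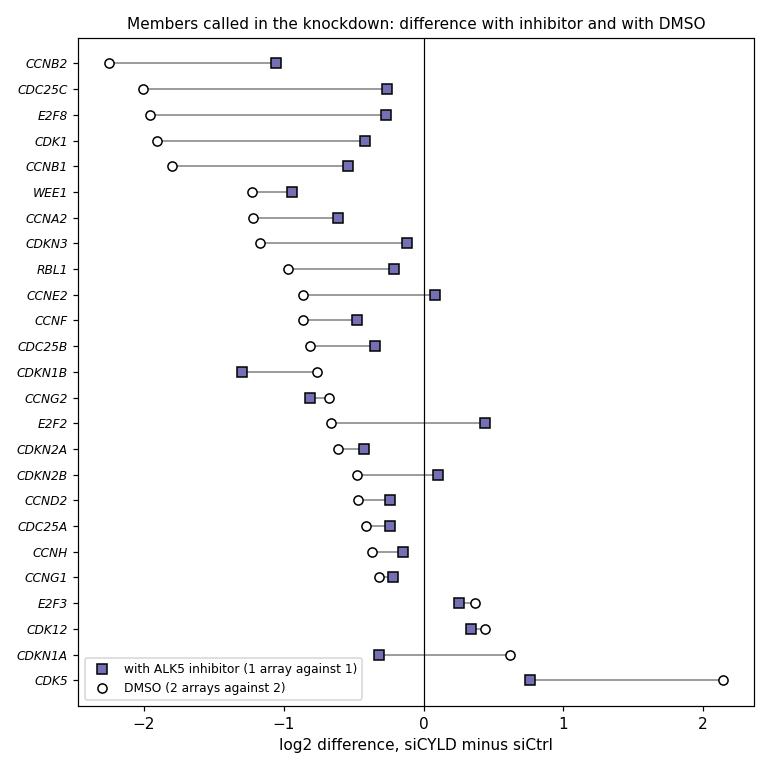
siCYLD minus siCtrl log2 difference with ALK5 inhibitor (squares, 1 array against 1) and with DMSO (circles, 2 against 2) for the 25 genes called with DMSO. The circles chose the genes, so their greater distance from 0 is no result. The squares of CDKN1B and CCNG2 lie farther from 0 than their circles, and CDKN1A lies at -0.32 with inhibitor and at 0.62 with DMSO.

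Whether the siRNA difference itself changed with the inhibitor was tested as an interaction, and 3 of the 54 genes passed, where 1.67% of all genes did. The interaction of CDK1 was 1.49 ± 0.27 (adjusted p = 0.0115, limma), that of CCNB1 1.26 ± 0.29 (adjusted p = 0.0494) and that of CDKN1A -0.94 ± 0.16 (adjusted p = 0.00949). CCNB2 (1.19 ± 0.30, adjusted p = 0.0712) and CDC25C (1.75 ± 0.44, adjusted p = 0.0778) did not pass, nor did CDKN1B (-0.53 ± 0.20, adjusted p = 0.234). With limma, 0 of the genes passed without the intensity trend and 0 with no filter, with 14 and 16 at an unadjusted p below 0.05. Averaging probe sets also ended the CDK1 call. The CCNB1 call was lost under 7 of 15 alternatives, among them an offset of 1, an offset of 64 and leaving out siCtrl replicate 2. Fitted by probe set, neither kept CCNB1 probe set was called (adjusted p = 0.082 and 0.259, limma). CDK1 was called on the probe set that represents it (adjusted p = 0.0199) and not on its other kept ones (adjusted p = 0.297 and 0.159). With 1 inhibitor array for each siRNA, this test assumes that those arrays vary as the duplicates do.

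In siCYLD cells CDK1, CCNB2, CCNB1 and CCNA2 were among the genes higher with the ALK5 inhibitor, and p21 (CDKN1A) and CDK14 were among those lower. The comparison is 1 inhibitor array against the 2 siCYLD DMSO arrays, which the knockdown comparison also uses, so the values of the 2 comparisons are not independent. Of the 54 genes 23 were called, where 22.4% of all genes were. Of them 19 were higher and 4 lower, where 12.2% and 10.2% of all genes were. CDK1 read 877 with inhibitor, against 224 and 173 with DMSO (2.07 ± 0.19, adjusted p = 8.38e-06). CCNB2 read 937 with inhibitor, against 281 and 209 with DMSO (1.88 ± 0.21, adjusted p = 4.53e-05), and CCNB1 811, against 245 and 198 (1.81 ± 0.21, adjusted p = 5.19e-05). For comparison, the siCtrl DMSO arrays read 747 and 824 for CDK1, 1040 and 1420 for CCNB2 and 693 and 938 for CCNB1.

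Regulators of CDK1 and cyclin A2 rose in siCYLD cells, whereas CCNF was not called (0.49, adjusted p = 0.0557). CDC25C read 175 with inhibitor, against 44.8 and 40 with DMSO (1.71 ± 0.31, adjusted p = 0.00191), and CCNA2 627, against 275 and 252 (1.20 ± 0.19, adjusted p = 0.000603). WEE1 read 2690, against 1140 and 1260 (1.15 ± 0.14, adjusted p = 7.82e-05), and CDC25B 5280, against 2490 and 2670 (1.03 ± 0.12, adjusted p = 5.49e-05). In all of them the inhibitor array lay above both DMSO arrays. CDKN3 read 202, against 102 and 64.9 (1.16 ± 0.31, adjusted p = 0.0171), and E2F8 110, against 7.14 and 48.1 (1.70 ± 0.54, adjusted p = 0.0395), a call lost without siCYLD replicate 1.

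E2F2, E2F1, CCNE2, RBL1, CDK4, CCND2 and CDK18 also rose in siCYLD cells, while CCND1, CCND3, CCNE1, CDK2 and CDK6 were not called (0.34, 0.15, 0.34, 0.08 and 0.13). E2F2 read 415 with inhibitor, against 149 and 104 with DMSO (1.61 ± 0.26, adjusted p = 0.000814), and E2F1 353, against 152 and 105 (1.37 ± 0.28, adjusted p = 0.0035). CCNE2 read 279, against 98.2 and 93.4 (1.40 ± 0.27, adjusted p = 0.00238), and RBL1 403, against 170 and 203 (1.05 ± 0.21, adjusted p = 0.00349). The RBL1 call was lost for the mean of its probe sets. Here the inhibitor array also exceeded the DMSO siCtrl arrays for E2F2, E2F1 and CCNE2, by the probe sets that represent them. The other kept E2F1 probe set read 176 with inhibitor, against 121 and 103 in siCYLD and 178 and 137 in siCtrl with DMSO. It differed by 0.58 in siCYLD cells and was not called across both siRNAs (adjusted p = 0.239, limma), so that E2F1 depended on the probe set. CDK4, the partner of D cyclins, read 2820 with inhibitor, against 1450 and 1330 with DMSO (1.01, adjusted p = 0.000401). CCND2 read 15400, against 11200 and 10000 (0.54, adjusted p = 0.00291). CDK18, a little-studied kinase of the PCTAIRE family, read 345, against 170 and 200 (0.85, adjusted p = 0.021), a call lost without siCYLD replicate 1.

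CCNT2 and CDK13, also among the 54 genes, fell with the inhibitor in siCYLD cells. CCNT2, a cyclin of CDK9, read 665 with inhibitor, against 966 and 977 with DMSO (-0.54, adjusted p = 0.0192). The CCNT2 call was lost without siCYLD replicate 2 and for the mean of its probe sets, the other kept ones differing by -0.12, -0.42 and 0.13. CDK13, which phosphorylates RNA polymerase II, read 4270, against 6310 and 6930 (-0.63, adjusted p = 0.00175), a call lost without _x_at and _s_at probe sets. Both lay outside the DMSO range.

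Markers of other cells moved in part with the inhibitor. The summed signal of the 5 measured leukocyte and endothelial markers was 826 and 916 on inhibitor arrays, against 318 to 444 on DMSO arrays. This was the endothelial cadherin CDH5, at 462 in siCYLD and 587 in siCtrl with inhibitor, against 5.83 to 63 with DMSO, while PECAM1 stayed at 188 to 216 and PTPRC and CD14 lay below the filter. The sum of the 6 fibroblast markers, of which 4 passed the filter, was 894 and 698 on inhibitor arrays, against 713 to 871 on DMSO arrays. The sum of the 7 kept epithelial markers was 86400 and 97100 on inhibitor arrays, against 80700 to 88600 on DMSO arrays. The squamous keratin KRT5 within it read 5600 in siCYLD and 12500 in siCtrl with inhibitor, against 900 to 1250 with DMSO. Their part in the results was not tested.

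In siCtrl cells 7 genes were called, where 9.36% of all genes were. Of them 5 were higher and 2 lower, where 5.02% and 4.34% of all genes were. CDC25A read 997 with inhibitor, against 448 and 464 with DMSO (1.10, adjusted p = 0.00147), and in siCYLD cells 840, against 339 and 340 (1.27 ± 0.17, adjusted p = 0.000178). The inhibitor arrays of both siRNAs thus lay above all 4 DMSO arrays. WEE1 read 5180 in siCtrl with inhibitor, against 2640 and 3040 with DMSO (0.87, adjusted p = 0.00189), and CDC25B 6730, against 4670 and 4400 (0.57, adjusted p = 0.0095). CDK5 read 98.6 with inhibitor, against 12.3 and 19 with DMSO (1.86, adjusted p = 0.0193). The mitotic cyclins CCNB1 and CCNB2 and CDK1 had differences of 0.55, 0.69 and 0.58 and did not pass. Whether the siRNAs differ in this is the interaction given above, which CDK1 and CCNB1 passed and CCNB2 did not.

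CDKN1A and CDK14 fell in both. CDKN1A read 2930 with inhibitor, against 8960 and 9810 with DMSO, in siCYLD cells (-1.67 ± 0.11, adjusted p = 1.18e-06) and 3680, against 5930 and 6300, in siCtrl cells (-0.73, adjusted p = 0.00177). Both inhibitor arrays lay below all DMSO arrays. CDK14, a kinase that pairs with cyclin Y, read 205 with inhibitor, against 845 and 861 with DMSO, in siCYLD cells (-1.98, adjusted p = 4.03e-06) and 254, against 950 and 967, in siCtrl cells (-1.85, adjusted p = 3.2e-05). Its interaction of -0.12 had a 95% interval of -0.62 to 0.38.

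Of the INK4 inhibitor genes, CDKN2A was higher with the inhibitor under both siRNAs, CDKN2B was called in siCYLD cells, and CDKN2D was not called (-0.39 in siCYLD and -0.34 in siCtrl cells). CDKN2A read 8490 with inhibitor, against 3880 and 4410 with DMSO, in siCYLD cells (1.03 ± 0.12, adjusted p = 5.6e-05) and 11400, against 6060 and 6580, in siCtrl cells (0.86, adjusted p = 0.000823). CDKN2B read 5490 with inhibitor, against 3050 and 3120 with DMSO, in siCYLD cells (0.83, adjusted p = 0.000311). That call was lost for the mean of the CDKN2B probe sets. In siCtrl cells CDKN2B read 5130, against 4520 and 4130, and did not pass (0.25, adjusted p = 0.219). CDKN1B differed by -0.13 in siCYLD cells (95% interval -0.43 to 0.17) and by 0.40 in siCtrl cells (adjusted p = 0.0925), neither of which passed. CCND1 read 4380 with inhibitor, against 3310 and 3630 with DMSO, in siCYLD cells and 3070, against 2010 and 3150, in siCtrl cells, and did not pass in either (0.34 and 0.29).

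**Figure D4:**
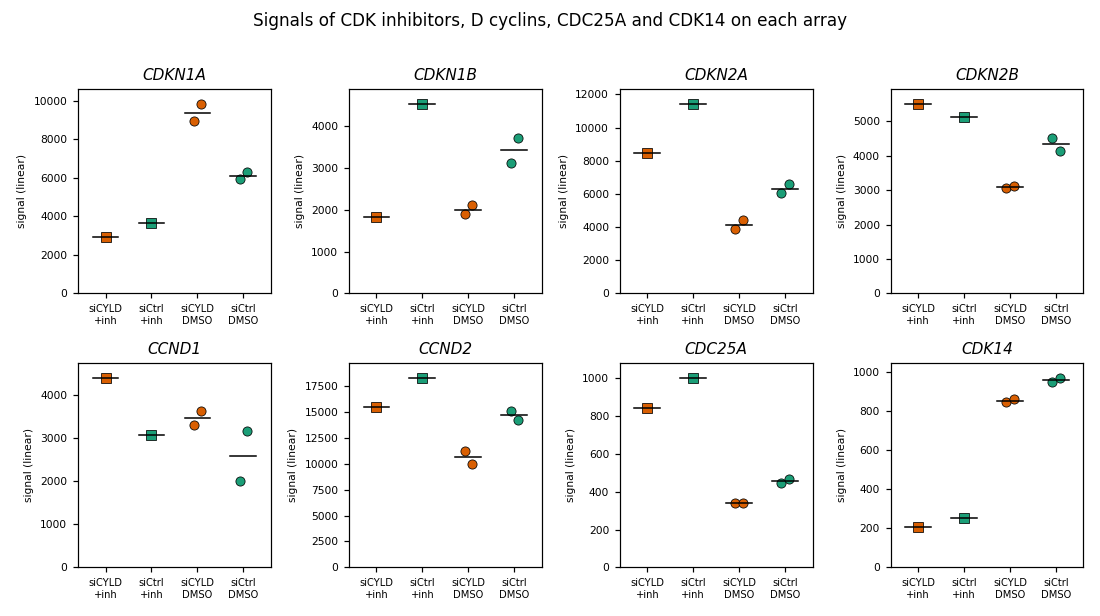
Linear signal on each array for 4 CDK inhibitor genes, CCND1, CCND2, CDC25A and CDK14, with symbols as in the plot of mitotic genes. CDKN1A and CDK14 lie lower on both inhibitor arrays than on all DMSO arrays, CDKN2A, CDKN2B and CDC25A lie higher, and CDKN1B separates the siRNAs, at 1830 in siCYLD with inhibitor and 4520 in siCtrl with inhibitor.

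Across both siRNAs, with 2 inhibitor arrays against 4 DMSO arrays in an additive model, 21 of the 54 genes were called, where 20% of all genes were. Of them 18 were higher and 3 lower, where 11.2% and 8.82% of all genes were. CDKN1A (-1.20 ± 0.17, adjusted p = 0.000936), CDK14 (-1.91 ± 0.12, adjusted p = 9.16e-06), CDKN2A (0.95 ± 0.10, adjusted p = 0.00017), CDC25A (1.19 ± 0.12, adjusted p = 0.000191), CDC25B (0.80 ± 0.11, adjusted p = 0.00108) and WEE1 (1.01 ± 0.11, adjusted p = 0.000291) were called under every alternative in which they were tested. CDK1 (1.32 ± 0.26), CCNB2 (1.29 ± 0.24), CCNB1 (1.18 ± 0.24), E2F2 (1.06 ± 0.25), E2F1 (0.98 ± 0.23) and CCNE2 (0.93 ± 0.23) were called as well and lost their calls without the siCYLD inhibitor array, as did CCNA2, CCND2, CDK4, CDKN2B and RBL1. Without that array 7 of the genes were called.

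A few genes were called only across both siRNAs. E2F5, a repressing E2F, read 303 in siCYLD and 432 in siCtrl with inhibitor, against 229 and 209 in siCYLD and 284 and 310 in siCtrl with DMSO (0.48, adjusted p = 0.0435). CDK17, a further PCTAIRE kinase, read 4470 in siCYLD and 3930 in siCtrl with inhibitor, against 3600 and 3570 in siCYLD and 3210 and 3290 in siCtrl with DMSO (0.29, adjusted p = 0.0395). Both calls were lost when any single array was left out. The inhibitor arrays overlapped the DMSO arrays for E2F5 and lay above them for CDK17. Over the 54 genes, both inhibitor arrays lay above all 4 DMSO arrays in 13 and below them in 6, where 15.7% and 14.4% of all genes did.

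**Figure D5:**
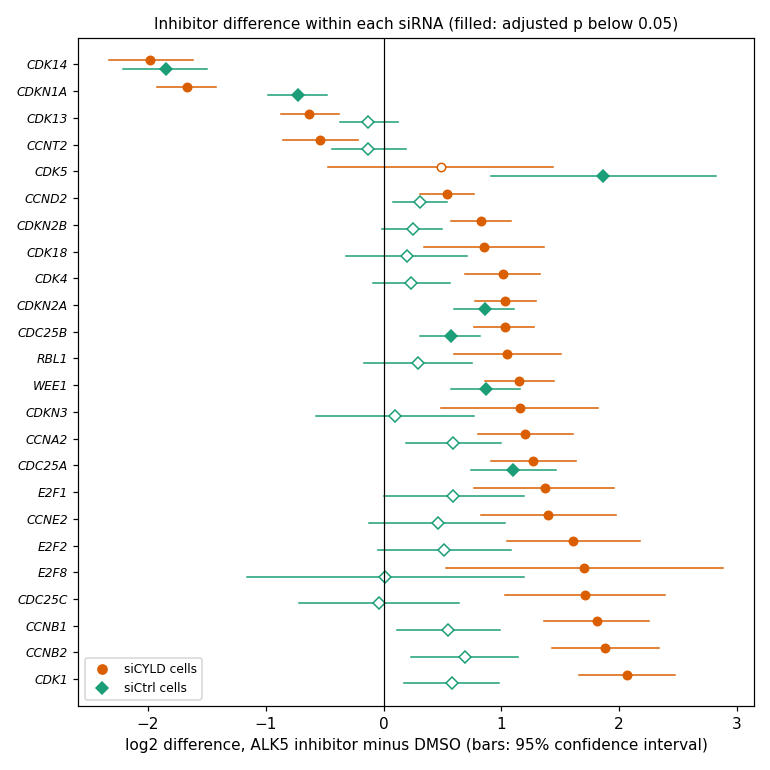
Inhibitor minus DMSO log2 difference in siCYLD cells (circles) and siCtrl cells (diamonds), 1 array against 2 each, with 95% confidence intervals from limma, for genes called in either. Filled symbols passed an adjusted p of 0.05. CDK14 lies near -1.98 and -1.85 in both, and CDK1 at 2.07 in siCYLD and 0.58 in siCtrl cells.

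A further 41 genes that act with these were listed, and the 40 on the array were tested. The list was chosen with earlier results of these data known, so its counts beside those of all genes may reflect that choice. With the knockdown, 18 were lower and 0 higher by limma, with a median of -0.24, where 11.8% and 9.49% of all genes were, with a median of -0.04. The largest falls were those of MYBL2, CDC20 and FBXO5. MYBL2, which encodes the B-MYB factor of mitotic genes, read 147 and 154 in siCYLD, against 651 and 480 in siCtrl (-1.79 ± 0.17, adjusted p = 8.52e-06). CDC20, an activator of the anaphase-promoting complex, read 802 and 759, against 2370 and 2480 (-1.61 ± 0.11, adjusted p = 4.93e-07), and FBXO5, an inhibitor of that complex, 562 and 631, against 1640 and 1620 (-1.43 ± 0.12, adjusted p = 2.37e-06). By role, 7 of 9 CDK-directed kinases and phosphatases, 5 of 11 turnover and assembly genes, 3 of 11 E2F, DREAM and B-MYB partners and 3 of 9 further cyclins and CDKs were lower. In siCYLD cells 18 of the 40 were higher with the inhibitor and 0 lower by limma, where 12.2% and 10.2% of all genes were. In siCtrl cells 2 were higher, SKP2 (0.59) and AURKA (0.63), a share near the 5.02% of all genes. MYC, which TGF-β is known to repress in epithelial cells, differed by 0.07 with the knockdown and was not called (adjusted p = 0.553), and it rose by 0.36 with the inhibitor in siCYLD cells (adjusted p = 0.012).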

How the data were processed

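RNA of SAS cells was labelled from 2 µg and measured on 6 arrays with 54675 probe sets. The deposited values are MAS5 intensities on a linear scale, per the submitters' processing notes (version and settings not given in the sources used here), and every array has the same trimmed mean of 500.1. They were used as deposited, as log2(intensity + 16.06), where 16.06 is percentile 20 of the values of all arrays. Probe sets with 1 symbol in the platform annotation were taken (41091, while 1801 had several and 11721 none, and 62 controls were left out). A probe set was kept where a group's mean log2 value exceeded 6.58, a signal of 79.3 (24537 kept), and the probe set with the highest mean stood for its gene (12935 genes).

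Models were fitted over all genes with limma 3.58.1 in R 4.3.3, with a mean per group or additive siRNA and inhibitor terms, moderation with an intensity trend and Benjamini-Hochberg adjustment. Calls needed an adjusted p below 0.05. The group model had 2 residual degrees of freedom from the duplicates, so single inhibitor arrays were taken to vary as duplicates do. The number of arrays limits the precision. The code was tested on simulated data.

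Signals were printed for genes called with a log2 difference of at least 1 in the knockdown, for genes called for the inhibitor or the interaction, and for a fixed set with CDKN1A, CDKN1B, CDKN2A, CDKN2B and CCND1. Members and lists were chosen with earlier results of these data known. Promoters came from RefSeq (GRCh38.p14). Alternatives covered offset, filter, quantile normalization, probe set choice, moderation, a replicate block, the arrays with conflicting labels and each array left out.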

Additional observations from a re-analysis of the deposited data

Results flagged for a closer look

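The siRNA difference changed with the inhibitor, by limma's interaction test, in 3 of the 54 cyclin, CDK, inhibitor and E2F genes tested and in 6 of the 40 tested genes that act with them, where 1.67% of all genes did. Both lists were chosen with earlier results of these data known, so these counts may reflect that choice. The change, on the log2 scale as the difference with inhibitor minus the difference with DMSO, was 1.49 ± 0.27 for CDK1 (adjusted p = 0.0115), 1.26 ± 0.29 for CCNB1 (adjusted p = 0.0494) and -0.94 ± 0.16 for CDKN1A (adjusted p = 0.00949). These calls were lost under 3 of 15, 7 of 15 and 2 of 14 alternatives. Fitted by probe set, neither kept CCNB1 probe set was called.

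For the B-MYB gene MYBL2 it was 1.64 (adjusted p = 0.0126) and for CDC20, an activator of the anaphase-promoting complex, 1.59 (adjusted p = 0.000852). FOXM1, which encodes a factor of mitotic genes, had 1.47 (adjusted p = 0.00259) and FBXO5 1.32 (adjusted p = 0.0052). CKS1B and CKS2, which encode small CDK-binding proteins, had 1.26 (adjusted p = 0.00735) and 1.19 (adjusted p = 0.0111). Each test rests on 1 inhibitor array per siRNA. Without the intensity trend 0 of all 12935 genes passed by limma (1480 at an unadjusted p below 0.05), so these 6 calls were lost there too. With no filter 33 of 19775 genes passed. The 6 genes were not followed one by one through the alternatives.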

How the results depend on the processing

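The count of knockdown calls among the 54 genes was 25, against 15 without the intensity trend, 10 in the additive model without both arrays of conflicting labels (9 of them among the 25) and 21 to 23 with single arrays left out. Over all genes the count of 2757 became 1219 and 963 under these settings and 2111 to 2737 with single arrays left out. For probe sets, 35 calls became 19 without the _x_at and _s_at types, 21 without the trend, 11 without both arrays of conflicting labels and 30 to 34 with single arrays left out. With single arrays left out, CDK12 differed by up to 0.58 (without siCYLD replicate 2). Its lowest value of -0.23, without siCYLD replicate 1, came from another probe set, which then stood for the gene. The probe set of the main fit still read 1140 in siCYLD there, against 1000 and 852 in siCtrl. CCNA2, CCNB1, CCNB2, CDK1, CDK5, CDKN1B, CDC25B and WEE1 kept their knockdown call under every alternative in which they were tested. Across both siRNAs the inhibitor's 21 calls became 8 without the trend, and 7 to 23 with single arrays left out, 7 without the siCYLD inhibitor array. Over all genes 2586 became 1087 without the trend, 1257 without both arrays of conflicting labels and 1265 to 2926 with single arrays left out. In siCYLD cells 23 calls became 21 to 26 with single arrays left out, and over all genes 2900 became 1819 with no filter, 1055 without the trend and 2452 to 3523 with single arrays left out. In siCtrl cells 7 calls became 4 without the _x_at and _s_at types, 1 without the trend and 7 to 12 with single arrays left out, and over all genes 1211 became 478 with no filter, 35 without the trend and 915 to 1682 with single arrays left out. For the interaction 3 calls became 1 for the mean of probe sets, 1 without the _x_at and _s_at types, and by limma 0 with no filter and 0 without the trend (16 and 14 at an unadjusted p below 0.05), and 2 to 7 with single arrays left out. Over all genes 216 became 33 with no filter, 95 for the mean of probe sets, 134 without the _x_at and _s_at types, 0 without the trend (1480 at an unadjusted p below 0.05) and 288 to 458 with single arrays left out. Within the inhibitor pair the 2 genes at least 2-fold lower became 1 for the mean of probe sets. Replicate numbers did not mark a known pairing, and deviations of arrays numbered alike correlated at 0.045 over 12935 genes. With the replicate block the knockdown gave 29 calls, the inhibitor across both siRNAs 11 (1474 over all genes), the inhibitor in siCtrl cells 14 (2152) and the interaction 8 (723). The causes were not tested. Genes with signals near the floor, such as CDK5, CDC25C and E2F8, are limited by signal over background.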
